A study of Mus musculus with 25 samples.

Results

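The proteasome subunit genes were followed across 25 RNA sequencing libraries of macrophages sorted from mouse lung. Members were the genes whose symbol begins with Psma to Psmg and a number, without Psmb8 and Psmb9. The symbol pattern matched 49 genes, and 47 of the 13482 genes in the count table remained: 16 genes of the 20S core, 21 genes of the 19S particle, and 10 genes of activators, 1 inhibitor and core assembly chaperones. One of the 21, Psmc3ip, is matched by its symbol only and encodes a meiotic recombination factor that is not a proteasome subunit. All 47 had at least 29 reads in every library and passed the filter on low counts in every fit.

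The proteasome is the main protease of the cytosol and nucleus and breaks down proteins tagged with ubiquitin. Its 20S core is a barrel of alpha and beta rings, closed by the 19S particle, whose ATPases unfold substrates and whose other subunits bind and remove ubiquitin. Psmb5, Psmb6 and Psmb7 carry the chymotrypsin-like, caspase-like and trypsin-like activities. In immune cells and under interferon gamma they can be replaced by Psmb8, Psmb9 and Psmb10, which together form the immunoproteasome and favour peptides for MHC class I.

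The mice were mixed bone marrow chimeras, in which cells of 2 marrow donors develop side by side. IL9R chimeras were B6/boyj hosts that held Il9r -/- cells, labelled KO, beside WT BoyJ cells, and ARG1 chimeras held cells labelled ARG1 conditional knockout (CKO) beside WT cells; the Cre driver is not given in the sources used here. CD11c+ and CD11c- interstitial macrophages (IM) came from lungs with B16 tumors, a mouse melanoma line, and total macrophages came from lungs labelled naive, although a growth label shared by all samples names the tumor model. The question named for the series is which transcripts in IM depend on IL-9 signaling within the cell.

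In the tumor lungs of IL9R chimeras there were 3 CD11c+ and 3 CD11c- libraries of KO cells, against 2 and 2 of WT cells. ARG1 chimeras gave 2 CD11c+ and 3 CD11c- libraries of CKO cells, against 3 and 3 of WT cells. The 4 naive groups, KO and WT from IL9R chimeras and CKO and WT from ARG1 chimeras, held 1 library each. The labels name no animal, so a p-value sets a difference against the spread of these libraries alone, which may be technical. In bulk samples, fewer cells of a type and less RNA per cell cannot be told apart.

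Library totals ran from 32308968 to 56904167 counts. Levels are CPM, library counts scaled to 1000000 with TMM factors. Itgax, which encodes CD11c, had 194 to 441 CPM in CD11c+ WT libraries, 11.4 to 33.4 CPM in CD11c- WT libraries, and 388 and 420 CPM in naive WT libraries. Il9r went against its label: it had 4.19, 2.95 and 1.79 CPM in CD11c+ and 12.5, 5.24 and 4.47 CPM in CD11c- libraries labelled KO, and no read in any of the 12 WT libraries. The naive library labelled KO had 4.48 CPM. Some libraries labelled CKO also held Il9r reads. CD11c+ CKO libraries had 1.89 and 0 CPM, CD11c- CKO libraries 0, 0 and 0.116 CPM, and the naive CKO library 0.109 CPM. Which exons held these reads cannot be seen from counts by gene. Differences are therefore given for cells labelled Il9r KO and are not ascribed to a change in the receptor. Arg1 had 2790, 2310 and 1710 CPM in CD11c- CKO libraries, against 6230, 4590 and 3620 CPM in CD11c- WT libraries. A pair of CD11c+ libraries stood apart, in part by levels of the members themselves. Labelled Il9r KO replicate 3 had summed alveolar macrophage markers of 11800 CPM. Its share of counts in members was the lowest of any tumor library (0.592%). ARG1-chimera WT replicate 1 had the highest level of Psmb6, 752 CPM. Alveolar markers also reached 8420 CPM in Il9r KO replicate 2 and 7240 CPM in IL9R-chimera WT replicate 2, both CD11c+. Among naive libraries, that of CKO cells had summed epithelial and endothelial markers of 439 CPM, against 18.6 to 53.3 CPM in the other 3, and alveolar macrophage markers of 5640 CPM, against 524 to 2390 CPM. Of the 47 members, 15 share at least 95% of 200 or more bases with another gene, and exons of 12 overlap another gene's, 8 of them on the opposite strand.

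Per kilobase of exon, the medians of the catalytic, other beta and alpha genes of the 20S core lay above those of the 19S roles, although single 19S and activator genes such as Psmd8 (181 CPM per kb), Psme1 and Psme2 stood among the core genes. Psmb6 had the highest median over the 25 libraries, 520 CPM per kb (range 201 to 942), followed by Psmb2 with 350 and Psmb3 with 300 CPM per kb, both structural subunits of the beta ring. The role medians were 212 CPM per kb for the 3 catalytic subunits, 227 for the 4 other beta subunits, 157 for the 7 alpha subunits, 107 for the 6 ATPases and 84.6 for the 11 other 19S subunits. Assembly factors sat lower, at 22 CPM per kb for the 4 core chaperones Psmg1 to Psmg4 and 14.1 for the 3 base chaperones Psmd5, Psmd9 and Psmd10. Among activators the spread was wide: Psme2 and Psme1, which form the interferon-inducible 11S cap, had 298 and 221 CPM per kb, and Psme4, the single-chain activator PA200, had 6.41. The lowest members were Psma8, the testis alpha subunit, with 1.78 CPM per kb and Psmc3ip with 2.17. The order depends on exon length, here taken from GENCODE basic transcripts: with all transcripts Psmb2 ranks first, Psmb6 stands at rank 3 and Psmb3 at rank 12.

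Promoters of 39 of the 47 genes were held in the RefSeq table of GRCm38.p6, as 42 windows of 250 bases before to 50 after a start. The motifs searched, on both strands, were 3. TGACNNNGC is the core of the antioxidant response element, to which NRF1 (encoded by Nfe2l1) and NRF2 bind with small Maf partners; NRF1 is known for raising proteasome genes when the proteasome is inhibited. It was found in 6 of 42 member promoters (14.3%), those of Psmb5, Psmb6, Psmc6, Psmd9, Psmd12 and Psme4, against 12.4% of all 32851 promoters. The second motif, TTTC then NN then TTTC, a core of interferon response elements, was found in 5 (11.9%), those of Psmb3, Psmd4, Psmd9, Psme1 and Psmg4, against 3.44% of all. CCAAT, the box bound by NF-Y, was found in 13 (31%), against 37.4% of all. A match is a description of letters, not a bound site. The motifs did not overlap each other in the windows printed here. The 250 bases upstream of 4 starts are shown because these genes carry the comparisons below: Psmb5 and Psmb6, the catalytic genes called in all 4 comparisons of tumor with naive cells with all libraries in the fit; Psmb4, the member with the smallest adjusted p in both of these comparisons in WT cells; and Psmd12, lower in CD11c+ than in CD11c- cells. Letters run 5′ to 3′ on the gene's strand, and capitals mark a TGACNNNGC match, read on the opposite strand in Psmd12. No match to it or to the second motif lies in the Psmb4 window.
Psmb5, chr14:54617996-54618245, minus strand: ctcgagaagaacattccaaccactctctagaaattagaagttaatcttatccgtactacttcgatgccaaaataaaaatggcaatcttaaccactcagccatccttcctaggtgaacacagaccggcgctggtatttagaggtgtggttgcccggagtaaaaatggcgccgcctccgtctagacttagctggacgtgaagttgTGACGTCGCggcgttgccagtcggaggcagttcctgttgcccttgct
Psmb6, chr11:70525107-70525356, plus strand: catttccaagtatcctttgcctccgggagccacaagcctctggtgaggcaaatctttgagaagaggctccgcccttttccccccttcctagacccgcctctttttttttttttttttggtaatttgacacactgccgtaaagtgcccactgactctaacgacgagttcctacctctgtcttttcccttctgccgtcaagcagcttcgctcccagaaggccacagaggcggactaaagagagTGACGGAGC
Psmb4, chr3:94886959-94887208, minus strand: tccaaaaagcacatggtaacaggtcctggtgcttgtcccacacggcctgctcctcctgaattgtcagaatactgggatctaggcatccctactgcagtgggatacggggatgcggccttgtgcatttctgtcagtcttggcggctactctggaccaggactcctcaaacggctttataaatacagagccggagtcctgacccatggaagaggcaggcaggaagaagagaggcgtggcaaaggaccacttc
Psmd12, chr11:107479278-107479527, plus strand: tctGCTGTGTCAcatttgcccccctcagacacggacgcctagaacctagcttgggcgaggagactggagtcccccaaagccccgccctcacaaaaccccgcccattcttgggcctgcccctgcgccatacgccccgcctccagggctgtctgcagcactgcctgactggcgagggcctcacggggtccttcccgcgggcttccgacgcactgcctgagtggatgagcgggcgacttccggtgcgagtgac
The match began 47 bases before the start in Psmb5, 9 before it in Psmb6 and 247 before it in Psmd12.

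In WT cells, part of the proteasome genes, among them 12 of the 16 genes of the 20S core in either subset, rose in tumor IM against naive macrophages; in each subset 2 members were called without the IL9R-chimera naive library. With all libraries, 22 of the 47 members rose and none fell in CD11c+ IM against naive total macrophages (edgeR quasi-likelihood test, Benjamini-Hochberg adjusted p under 0.05 over 13170 genes; called genes in what follows), where 13.7% of all genes rose. Of the genes averaging 30 CPM or more, 25.9% rose. In CD11c- IM 25 members rose and none fell, where 13% of all genes and 26.3% of those averaging 30 CPM or more rose. The median log2 fold change of the members was 0.61 in CD11c+ and 0.64 in CD11c- IM, against -0.02 and -0.03 over all genes. Every tumor library lay above both naive libraries for 27 members in CD11c+ and 30 in CD11c- IM, as it did for 19.4% and 17.4% of all genes. Both comparisons share the same 2 naive WT libraries. Tumor cells were sorted IM subsets and naive cells were total macrophages, so tumor and sorted population cannot be told apart.

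The catalytic subunits rose in both subsets. Psmb6, the caspase-like subunit at chromosome 11, 70525367 to 70527858 on the plus strand (mm10, as all positions here), had 415, 470, 752, 521 and 466 CPM in CD11c+ WT IM, 356, 394, 460, 373 and 405 CPM in CD11c- WT IM, and 316 and 160 CPM in naive WT macrophages. Every tumor library lay above both naive libraries, and the 2 naive libraries lay further from each other than the higher one lay from the lowest tumor library. The log2 fold change was 1.17 (SE 0.23, adjusted p 0.00262, edgeR) in CD11c+ and 0.78 (SE 0.23, adjusted p 0.0207) in CD11c- IM. Without the IL9R-chimera naive WT library the log2 fold changes were 0.84 and 0.46, and both calls were lost.

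Psmb5, the chymotrypsin-like subunit (chromosome 14, 54614119 to 54618022, minus strand), had 188, 208, 338, 222 and 213 CPM in CD11c+ WT IM, 129, 191, 209, 167 and 189 CPM in CD11c- WT IM, and 139 and 79.3 CPM in naive WT macrophages. One CD11c- library, from the IL9R chimeras, lay below the higher naive library, and all other tumor libraries lay above both. Psmb5 rose by a log2 fold change of 1.12 (SE 0.23, edgeR adjusted p 0.00365) in CD11c+ and 0.73 (SE 0.23, adjusted p 0.0316) in CD11c- IM. The CD11c+ call was lost without the IL9R-chimera naive WT library (0.0889). The CD11c- call was lost without that library (0.336), without the other naive WT library (0.0624), without IL9R CD11c- WT replicate 2 (0.0762) and without ARG1 CD11c- WT replicate 1 (0.0607). A pseudogene copy, Gm3375, is 98.9% identical to it over 796 bases, which leaves the share of reads assigned to Psmb5 uncertain.

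Psmb7, the trypsin-like subunit (chromosome 2, 38588036 to 38644087, minus strand), had 121, 125, 164, 125 and 128 CPM in CD11c+ WT IM, 80.5, 135, 162, 128 and 140 CPM in CD11c- WT IM, and 69.3 and 43 CPM in naive WT macrophages. Tumor and naive libraries did not overlap. The log2 fold changes were 1.26 (SE 0.23, edgeR adjusted p 0.00166) in CD11c+ and 1.22 (SE 0.23, adjusted p 0.00159) in CD11c- IM. Its exons share 405 bases with Nek6 on the opposite strand, and the strand setting of the counting is not given in the sources used here.

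**Figure D1:**
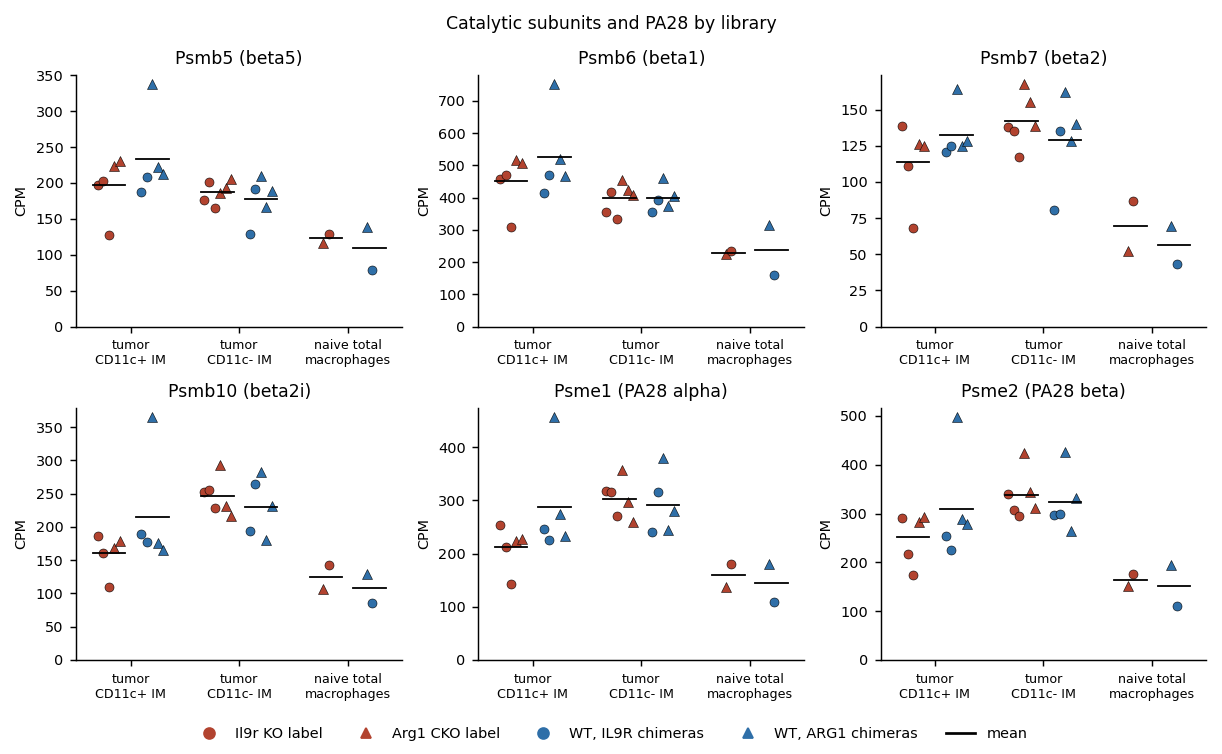
CPM of Psmb5, Psmb6, Psmb7, Psmb10, Psme1 and Psme2 in each of the 25 libraries (points) by population and genotype label, with lines at the means of knockout-labelled and WT libraries. Tumor CD11c+ and CD11c- libraries lie mostly above the 4 naive libraries, and for Psmb6 every WT tumor library (356 to 752 CPM) lies above both naive WT libraries (316 and 160 CPM).

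Most of the rest of the 20S core moved with them: 12 of its 16 genes rose in each subset, with a median log2 fold change of 0.99 in CD11c+ and 0.81 in CD11c- IM. Psmb4, a structural beta subunit (chromosome 3, 94884093 to 94886961, minus strand), had 158, 181, 281, 179 and 185 CPM in CD11c+ WT IM, 125, 205, 246, 196 and 209 CPM in CD11c- WT IM, and 94.4 and 62 CPM in naive WT macrophages. The groups did not overlap, and the log2 fold changes were 1.34 (SE 0.24, edgeR adjusted p 0.0015) in CD11c+ and 1.33 (SE 0.24, adjusted p 0.00112) in CD11c- IM. Among alpha subunits, which form the gated outer rings, 5 of 7 rose in each subset. Psma6 (chromosome 12, 55384222 to 55418454, plus strand) had 235, 291, 432, 285 and 291 CPM in CD11c+, 227, 465, 446, 326 and 341 CPM in CD11c- and 171 and 102 CPM in naive WT cells, without overlap. Its log2 fold change of 1.44 in CD11c- IM (SE 0.29, edgeR adjusted p 0.00241) was the highest of any member there, and it was 1.19 in CD11c+ IM (adjusted p 0.00822). The other alpha and beta genes called with the smallest adjusted p were Psma2 (log2 fold change 1.10 in CD11c+, 1.12 in CD11c- IM), Psma5 (0.99 and 1.08), Psma4 (0.61 and 0.83), Psmb1 (0.89 and 0.74) and Psmb2 (0.98 and 1.00). Psma8 had 3.01, 4.56, 2.3, 1.8 and 2.37 CPM in CD11c+, 1.68, 2.5, 3.19, 3.08 and 0.801 CPM in CD11c- and 5.48 and 5.44 CPM in naive WT cells. Both subsets lay below the naive libraries, and neither difference was called (log2 fold change -0.94 with edgeR adjusted p 0.249 in CD11c+, -1.21 with 0.134 in CD11c- IM).

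Psmb10, the beta subunit that takes the place of Psmb7 in the immunoproteasome (chromosome 8, 105935735 to 105938444, minus strand), had 190, 178, 365, 176 and 166 CPM in CD11c+ WT IM, 194, 264, 283, 180 and 232 CPM in CD11c- WT IM, and 129 and 86.3 CPM in naive WT macrophages. It did not overlap between tumor and naive, and rose by 1.02 (SE 0.30, edgeR adjusted p 0.0243) in CD11c+ and 1.13 (SE 0.30, adjusted p 0.0134) in CD11c- IM on the log2 scale. Of its partners outside the rule, Psmb9 rose in both (0.94 and 1.01, adjusted p 0.0151 and 0.0096), and Psmb8 had log2 fold changes of 0.66 and 0.73 that were not called (adjusted p 0.0916 and 0.0631).

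Of the 21 genes of the 19S particle, 3 rose in CD11c+ IM (median log2 fold change 0.43) and 8 in CD11c- IM (median 0.51). The CD11c+ count is near the 13.7% of all genes that rose and below the 25.9% of genes averaging 30 CPM or more. The difference between these counts was not tested; the subsets are compared gene by gene further down. In CD11c- IM the 8 comprised 3 of 6 ATPases and 5 of 11 other subunits. Psmc1, an ATPase of the ring that opens the core (chromosome 12, 100110154 to 100123405, plus strand), had 279, 494, 307, 270 and 243 CPM in CD11c- WT IM and 177 and 134 CPM in naive WT macrophages, without overlap (log2 fold change 1.05, SE 0.25, edgeR adjusted p 0.00676). The ATPase gene Psmc5 had 196, 213, 225, 185 and 199 CPM in CD11c- IM and 150 and 91.9 CPM in naive cells (0.79, SE 0.19, adjusted p 0.00703). The other 6 called in CD11c- IM were the ATPase gene Psmc2 (0.59), the deubiquitinase gene Psmd14 (0.62) and the subunit genes Psmd3 (0.73), Psmd11 (0.65), Psmd12 (0.51) and Psmd13 (0.78). In CD11c+ IM the 3 were Psmd13 (0.83, adjusted p 0.0117), Psmc5 (0.61, 0.0281) and Psmd8 (0.77, 0.0398). Psmd2, a large scaffold of the base, was not called in either subset, with log2 fold changes of -0.09 in CD11c+ and 0.28 in CD11c- IM. None of the 3 base assembly chaperones was called in either.

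Of the activators, Psme1 and Psme2 rose. Psme2 (chromosome 14, 55587441 to 55591113, minus strand) had 254, 225, 497, 288 and 279 CPM in CD11c+, 298, 299, 427, 265 and 332 CPM in CD11c- and 194 and 110 CPM in naive WT cells, without overlap. Its log2 fold changes were 1.03 (SE 0.26, edgeR adjusted p 0.0103) in CD11c+ and 1.12 (SE 0.26, adjusted p 0.00589) in CD11c- IM. Psme2 is 99.4% identical to Psme2b over 794 bases, so the split of reads between them is uncertain. Psme1, its partner in the same cap and its neighbour on chromosome 14 (55578123 to 55581529, plus strand), had 246, 226, 456, 275 and 232 CPM in CD11c+, 241, 316, 379, 244 and 279 CPM in CD11c- and 181 and 109 CPM in naive WT cells. It too did not overlap, with log2 fold changes of 1.00 (edgeR adjusted p 0.0158) and 1.04 (adjusted p 0.0119). Psmf1, the inhibitor PI31, rose by 0.67 (adjusted p 0.0234) in CD11c+ and 0.56 (adjusted p 0.0489) in CD11c- IM. With the compared groups alone neither was called (adjusted p 0.064 and 0.0599). The CD11c- call was also lost with RLE scaling (0.0537), with no filter (0.0631) and without most single libraries (over its 19 alternatives 0.0231 to 0.379), and the CD11c+ call without either naive WT library (0.068 and 0.261; over its 19 alternatives 0.00562 to 0.261). Psme3, the nuclear cap PA28 gamma, had log2 fold changes of 0.29 and 0.42 and Psme4 of 0.43 and 0.53, and none of these was called. The core chaperones, which pair alpha subunits into rings, were called in 4 of 4 cases in CD11c+ and 2 of 4 in CD11c- IM; Psmg1 had log2 fold changes of 1.01 (adjusted p 0.0111) and 0.99 (adjusted p 0.0117).

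**Figure D2:**
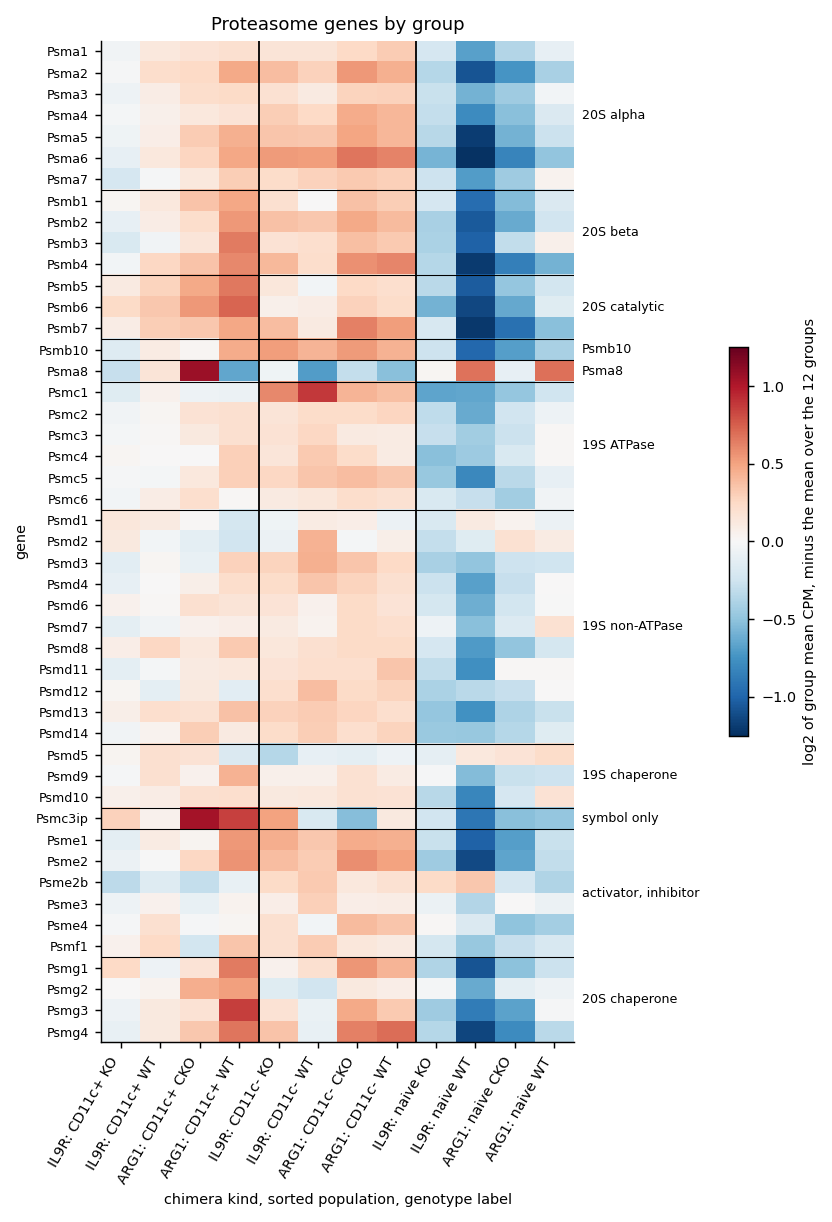
Mean level of each of the 47 members in the 12 groups, drawn as log2 of the group mean CPM minus its mean over the 12 groups (colour scale), with genes in rows by role. The naive columns are blue for most 20S core genes, deepest in the IL9R-chimera WT library (Psmb6 160 CPM), and the rows of Psmd1, Psmd2, Psmd5 and Psme3 stay pale.

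Cells labelled knockout gave another 13 libraries, which may come from the same chimeric animals as the WT libraries above. In CD11c- IM of these cells 34 of 47 members rose and none fell against naive knockout macrophages, where 11.3% of all 13356 genes and 24% of those averaging 30 CPM or more rose. The median log2 fold change was 0.59 (all genes -0.08), and 38 members had every tumor library above both naive libraries, as had 18.6% of all genes. The 34 held 15 of 16 core genes, all but Psma8, and all 6 ATPases. In CD11c- IM Psma6 had a lowest, median and highest value of 294, 373 and 456 CPM over 6 libraries, against 136 and 161 CPM in the naive libraries. Its groups did not overlap, and the log2 fold change was 1.29 (SE 0.23, edgeR adjusted p 0.00184). Psma4 had 191 to 242 CPM against 113 and 132 CPM, and the smallest adjusted p of the members (log2 fold change 0.79, SE 0.14, adjusted p 0.00181). Psme2 followed with 296, 326 and 424 CPM (lowest, median, highest) against 152 and 176 CPM, again without overlap (log2 fold change 1.02, SE 0.20, adjusted p 0.00282). The catalytic genes Psmb6 (0.79, adjusted p 0.00541), Psmb7 (1.02, adjusted p 0.0122) and Psmb5 (0.60, adjusted p 0.0259) were all called, as were Psmb10 (0.98, adjusted p 0.00414), Psme1 (0.93, adjusted p 0.00646) and Psme4 (0.52, adjusted p 0.0453); Psme3 (0.12) and Psmf1 (0.43) were not. Psme4 lost its call with the compared groups alone (0.0536), in the fit of all 25 libraries (0.0509), without Il9r KO CD11c- replicate 1 (0.0533), without any of the 3 CD11c- CKO libraries (0.0543 to 0.0643) and without the naive CKO library (0.569), and DESeq2 called Psmf1 (adjusted p 0.0492).

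In CD11c+ IM labelled knockout only Psmb6 and Psmb5 of the 47 rose, where 3.02% of all genes and 5.93% of those averaging 30 CPM or more rose. An unadjusted p of 0.05 was passed by 25 members, and by 3056 of all 13356 genes. The median log2 fold change was 0.41 (all genes -0.05), with 45 of 47 positive, and 14 members had all 5 libraries above both naive libraries, as had 9.84% of all genes. Psmb6 had 459, 471 and 309 CPM in cells labelled Il9r KO and 518 and 506 CPM in CKO cells, against 225 and 233 CPM in the naive libraries. All 5 lay above the naive pair (log2 fold change 0.99, SE 0.18, edgeR adjusted p 0.0101). With the compared groups alone Psmb6 was not called (edgeR adjusted p 0.0926), and without the naive CKO library its log2 fold change was 0.87. Psmb5 had 197, 203, 128, 224 and 231 CPM, against 117 and 129 CPM, so 1 CD11c+ library lay within the naive range (log2 fold change 0.68, SE 0.18, adjusted p 0.0462). Psmb5 lost this call with the compared groups alone (adjusted p 0.196), without the naive CKO library (0.47) and without any 1 of 9 other libraries (0.055 to 0.0929); over its 20 alternatives the adjusted p ran from 0.0022 to 0.47. Its CD11c- call was lost without the naive CKO library (0.346). The CD11c+ library within the naive range, Il9r KO replicate 3, had the highest summed alveolar markers, 11800 CPM. Il9r KO replicate 2, with 8420 CPM of these markers, had 203 CPM of Psmb5. Without replicate 3, 28 members were called. Replicate 3 also had the lowest share of counts in members of any tumor library, which makes this count no independent check. Psmb7 (0.71), Psmb10 (0.37), Psme1 (0.41) and Psme2 (0.62) were not called with all 5 libraries.

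**Figure D3:**
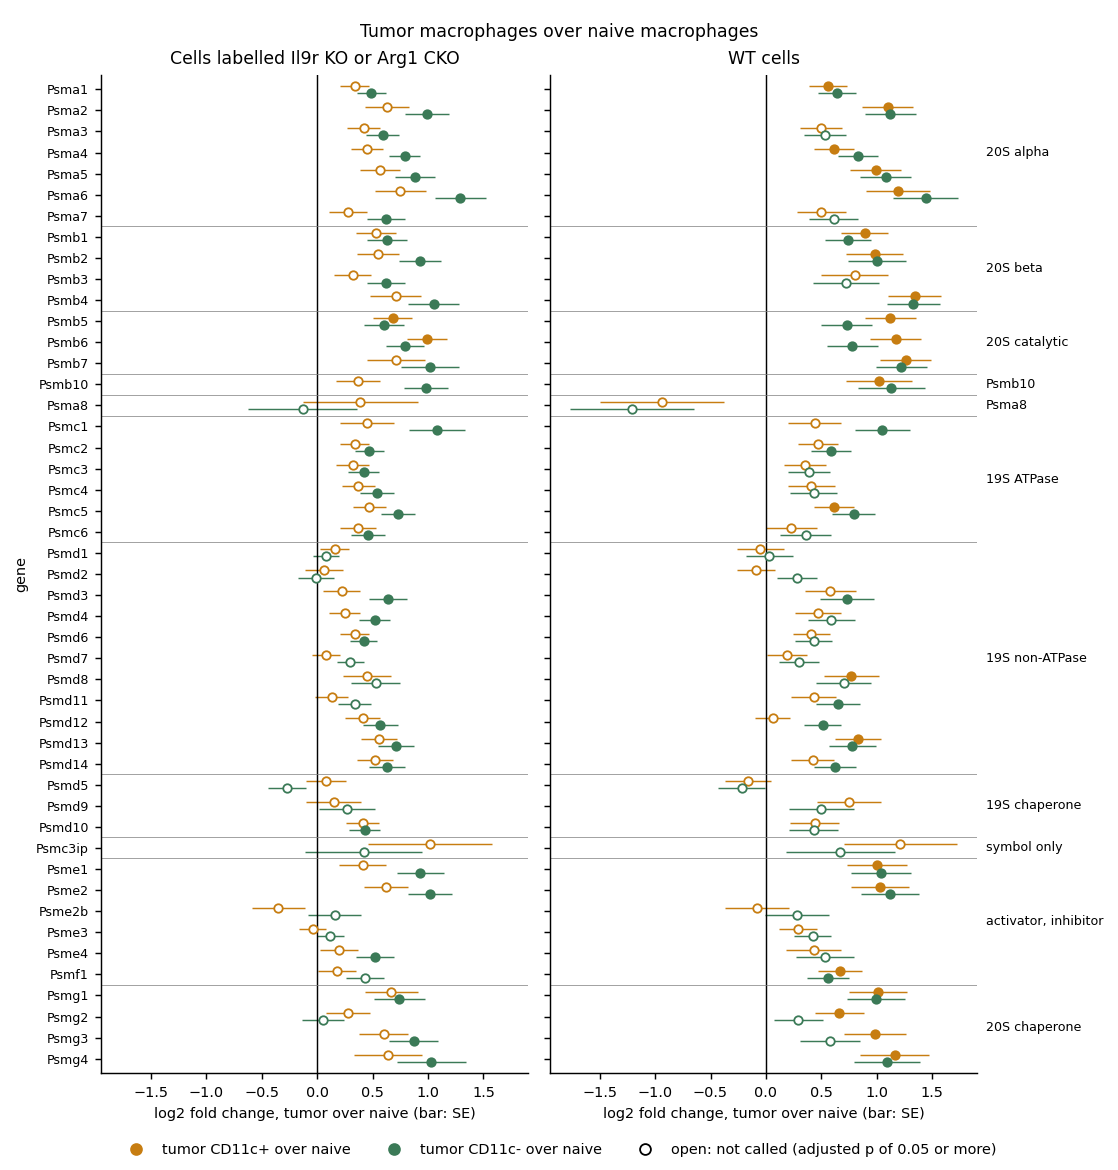
Log2 fold change of each member in tumor IM over naive macrophages, for CD11c+ and CD11c- IM in cells labelled knockout and in WT cells, by role; filled points are called at an adjusted p under 0.05. Most points lie above 0 in all 4 comparisons, with 2, 34, 22 and 25 of the 47 called in CD11c+ knockout, CD11c- knockout, CD11c+ WT and CD11c- WT cells.

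These counts rest on the naive libraries, of which each group has 1. The share of all genes called in refits without a library is not given here. A change of calls particular to the members can therefore not be told from one over all genes. Without the naive WT library of the IL9R chimeras, which was the lowest of the 4 naive libraries for most members (Psmb6 160 CPM), 2 members were called in each WT comparison, Psmb4 and Psmb7, and the median log2 fold change was 0.46 in both. Without the naive WT library of the ARG1 chimeras the medians were 0.85 in CD11c+ and 0.93 in CD11c- IM, with 15 and 18 members called. Without the naive CKO library no member was called by edgeR in either comparison of cells labelled knockout, while the CD11c- median was 0.50 and the median of all genes moved to 0.05. Within a chimera kind, in a fit of all 25 libraries, the CD11c+ median was 0.27 and the CD11c- median 0.49 in cells labelled Il9r KO, against 0.75 and 0.94 in WT cells of the same chimeras. The numbers called were 0 and 0 in cells labelled Il9r KO (5 and 21 at an unadjusted p under 0.05; 0.00742% and 1.08% of all genes rose), against 16 and 28 in WT cells (7.35% and 7.47%). In ARG1 chimeras the medians were 0.58 in CD11c+ and 0.65 in CD11c- CKO cells, against 0.46 and 0.42 in WT cells, with 3 and 20 called in CKO cells (4.21% and 9.14% of all genes) and 2 and 2 in WT cells (5.18% and 5.94%). The knockout minus WT difference of the tumor effect, taken as the mean over both chimera kinds, was called by edgeR for no member in either subset. No member had an unadjusted p under 0.05, and 0% of all genes were called. Since the medians differed in opposite directions in IL9R and ARG1 chimeras, this mean cannot answer for either kind. The difference within a chimera kind was not tested.

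Markers of tumor and other cells moved with the same comparison. B16 melanoma markers, a list that holds Gpnmb, which macrophages also express, summed to 1880 to 5600 CPM in CD11c+ IM, 345 to 1310 CPM in CD11c- IM and 855 to 1080 CPM in naive libraries. In WT IM 8 of its 12 genes rose in CD11c+ and 7 in CD11c- cells, and Tyrp1, a pigment gene, averaged 17.8 and 35.1 CPM, against 0.312 CPM in naive WT cells. Gpnmb alone averaged 3410 CPM in CD11c+ and 620 CPM in CD11c- WT IM, so the sums there are mostly those of 1 gene. In CD11c+ over CD11c- WT IM, 3 of the 12 genes had a positive log2 fold change (median -0.65). In CKO cells 3 did (median -0.68), and in cells labelled Il9r KO 11 did (median 0.84). Monocyte and neutrophil markers summed to 376 to 1400, 1540 to 3060 and 831 to 1050 CPM in CD11c+, CD11c- and naive libraries; 1 of 11 rose and 2 fell in CD11c+, and 4 rose and none fell in CD11c- WT IM, with Ly6c2, a marker of inflammatory monocytes, higher in both (log2 fold change 2.78 and 4.56). T and NK cell markers summed to 6.92 to 196 CPM in CD11c+ IM, 1.56 to 12.1 CPM in CD11c- IM and 101 to 209 CPM in naive libraries, and 3 and 2 of the 10 tested fell in CD11c+ and CD11c- WT IM. The naive WT sums are mostly those of Cd2, which averaged 143 CPM there, beside 0.534 CPM for Cd3e and 2.64 CPM for Nkg7. Dendritic cell markers summed to 198 to 502, 14.5 to 100 and 150 to 422 CPM in CD11c+, CD11c- and naive libraries, and 1 and 8 of 12 fell. Alveolar macrophage markers summed to 629 to 11800, 375 to 627 and 524 to 5640 CPM; 1 of 15 rose and none fell in CD11c+, 1 rose and 7 fell in CD11c- WT IM, and Krt79 had no read in 13 of the 25 libraries. Macrophage markers ran from 10800 to 32700 CPM in tumor and 12000 to 15600 CPM in naive libraries, with 5 of 10 higher in CD11c+ and 4 of 10 in CD11c- WT IM. Of 20 cell cycle genes 18 rose in CD11c+ and 10 in CD11c- WT IM. The part of these in the proteasome result was not tested.

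Genes around the proteasome did not all follow it. Of 9 tested genes of other proteasome parts and assembly, 2 rose in CD11c+ and 3 in CD11c- WT IM. These were Pomp, the maturation factor of the core (log2 fold change 1.08 and 1.02, adjusted p 0.00153 and 0.00155), Shfm1, a small 19S subunit (1.21 and 1.33), and in CD11c- IM also Uchl5, a deubiquitinase of the 19S base (0.67). Nfe2l1, which encodes NRF1, had 113, 97.9, 69.7, 88.8 and 66.1 CPM in CD11c+, 121, 91.7, 85, 101 and 60.3 CPM in CD11c- and 171 and 216 CPM in naive WT cells. All tumor libraries lay below both naive libraries, and the transcript fell by 1.09 (adjusted p 0.00156) in CD11c+ and 1.01 (adjusted p 0.00199) in CD11c- WT IM on the log2 scale. In cells labelled knockout it fell by 1.00 (adjusted p 0.0234) in CD11c+ and by 1.20 (adjusted p 0.00151) in CD11c- IM. NRF1 is controlled largely at the protein level, which was not measured.

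Between the tumor subsets, few members differed. In WT cells no member was higher in CD11c+ than in CD11c- IM, where 5.44% of all 13434 genes were, and 3 were lower, where 6.1% of all genes were. The 3 all belong to the 19S particle. The median log2 fold change of the 47 was -0.07 (all genes 0). Psmd12, a lid subunit (chromosome 11, 107479484 to 107504362, plus strand), had 93.3, 86.2, 86.5, 95.8 and 85 CPM in CD11c+ and 127, 128, 130, 113 and 112 CPM in CD11c- WT IM. The groups did not overlap, and it fell by 0.47 on the log2 scale (SE 0.12, edgeR adjusted p 0.0134); without IL9R-chimera CD11c+ WT replicate 2 the adjusted p was 0.0721, and over all 18 alternatives it ran from 0.00196 to 0.0721. Psmc1 had 197, 238, 209, 191 and 197 CPM in CD11c+ and 279, 494, 307, 270 and 243 CPM in CD11c- WT IM, also without overlap. Its log2 fold change of -0.65 (SE 0.19, adjusted p 0.0264) became -0.42 (adjusted p 0.161) without the CD11c- WT library at 494 CPM. It also lost its call without IL9R CD11c+ WT replicate 1 (0.116) or 2 (0.0614), ARG1 CD11c- WT replicate 1 (0.0646) or ARG1 CD11c+ WT replicate 2 (0.0516). Psmd2 (chromosome 16, 20651652 to 20663414, plus strand) had 310, 290, 252, 256 and 272 CPM in CD11c+ and 472, 358, 314, 353 and 299 CPM in CD11c- WT IM. Its groups overlapped by 1 library on each side, and it fell by 0.40 (SE 0.11, adjusted p 0.0232). It was not called with the compared groups alone (0.0834), without IL9R CD11c- WT replicate 1 (0.151), IL9R CD11c+ WT replicate 1 (0.0578) or 2 (0.104), or ARG1 CD11c- WT replicate 2 (0.0585), nor with the replicate number as a block where numbers pair the libraries (0.084). Pseudogenes share 95.6% or more of the Psmc1 sequence and 96.4% of the Psmd2 sequence over long stretches.

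The catalytic and ring genes were not called between the subsets. Psmb6 and Psmb5 had positive log2 fold changes of 0.35 (adjusted p 0.127) and 0.37 (adjusted p 0.139), and Psmb7 of 0.06. All 7 alpha subunits were negative (-0.28 to -0.03), as were Psmb10 (-0.15), Psme1 (-0.08), Psme2 (-0.14), Psme3 (-0.16) and Psme4 (-0.05), while Psmf1 was at 0.07. In the same comparison 6 of 20 cell cycle, 6 of 15 alveolar macrophage and 5 of 12 dendritic cell genes rose. Of 16 interferon gamma response genes 5 fell and 2 rose. The part of these lists in the 3 calls was not tested.

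**Figure D4:**
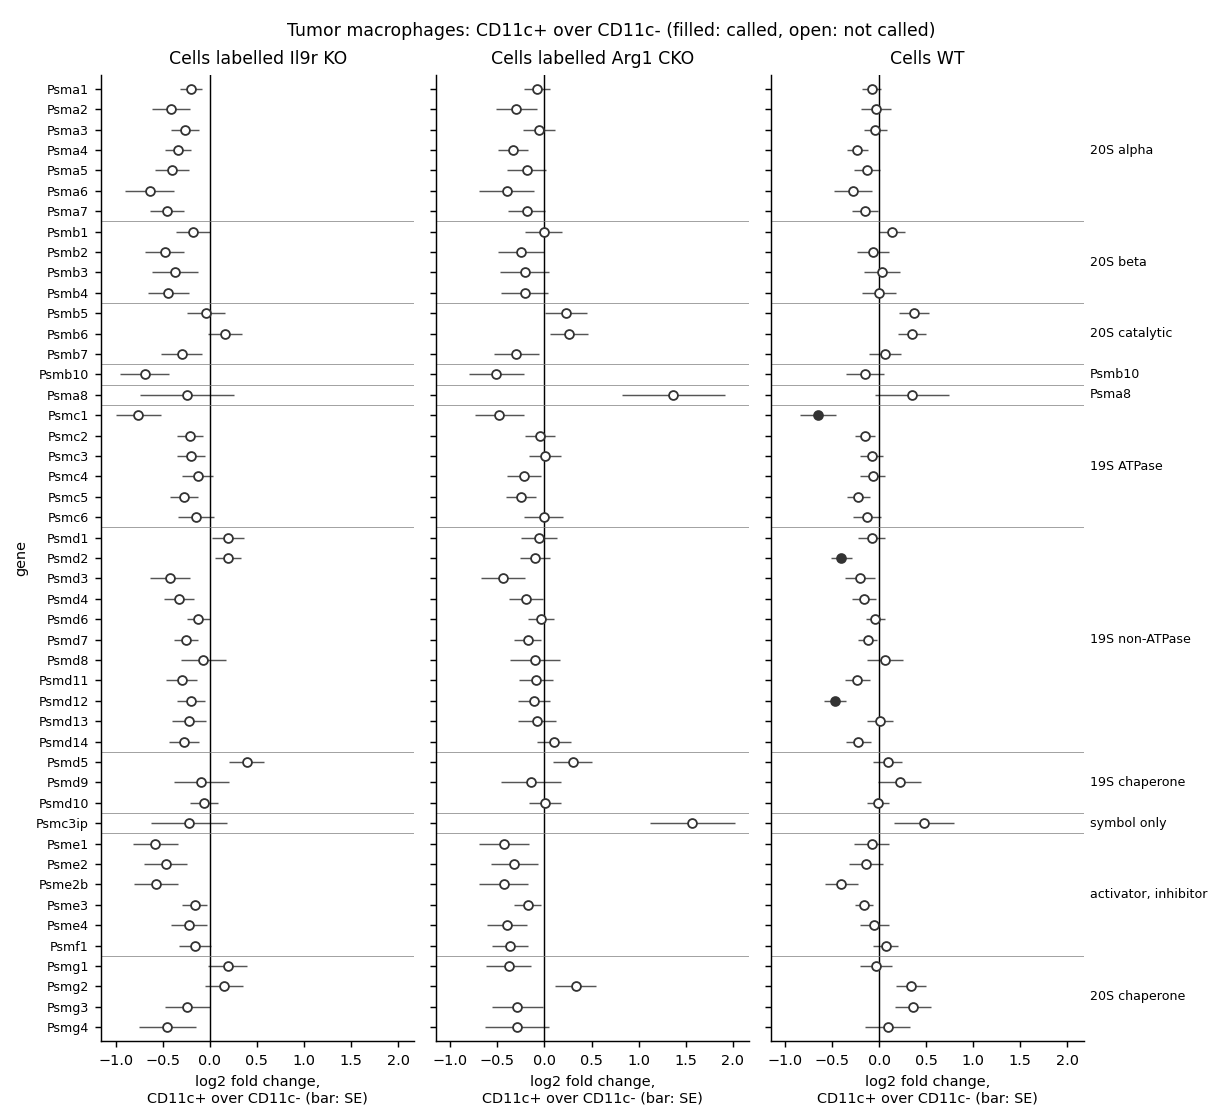
Log2 fold change of each member in CD11c+ over CD11c- tumor IM, in cells labelled Il9r KO, in Arg1 CKO cells and in WT cells, by role, with standard errors; filled points are called. In WT cells 3 points, Psmc1, Psmd2 and Psmd12, are filled below 0, and none is filled in the knockout cells.

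In cells labelled Il9r KO and in CKO cells edgeR called no member between CD11c+ and CD11c- IM, where 5.94% and 2.89% of all genes were called. An unadjusted p under 0.05 was reached by 10 and 3 members, and by 2415 and 2066 of all 13434 genes. DESeq2 called 2 and 1 members. In cells labelled Il9r KO, 41 of 47 log2 fold changes were negative with a median of -0.24 (all genes 0.03), and in CKO cells 38 were negative with a median of -0.18 (all genes 0). Every CD11c+ library lay below every CD11c- library for 16 members in cells labelled Il9r KO and 25 in CKO cells, as it did for 11.1% and 19.3% of all genes. Psmc1 had 187, 214 and 166 CPM in CD11c+ and 212, 472 and 271 CPM in CD11c- IM labelled Il9r KO. The groups overlapped, and the log2 fold change was -0.76 (edgeR adjusted p 0.0639). With the replicate number as a block where the numbers pair the libraries, Psmc1 was called (-0.69, adjusted p 0.0138), 1 of 2 members called in that fit; over its 14 alternatives the adjusted p ran from 0.011 to 0.481. Psmb10 had 187, 161 and 110 CPM in CD11c+ against 253, 255 and 229 CPM in CD11c- IM labelled Il9r KO, without overlap (-0.69, adjusted p 0.143). It was called with the block over all label numbers (-0.72, adjusted p 0.0351) and not with the block where the numbers pair the libraries. In CKO cells the smallest unadjusted p values belonged to Psmc3ip (1.57, adjusted p 0.0654) and Psma8 (1.37, adjusted p 0.221), the pair of members with the lowest levels.

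The balance between parts of the proteasome, taken as ratios of CPM per kb within a library, is given without a test. The mean of 14 standard core genes over the mean of 17 ATPase and other 19S genes ranged from 1.82 to 3.07 (median 2.34) in 10 CD11c+, 1.79 to 2.41 (median 2.24) in 11 CD11c- and 1.52 to 2.04 (median 1.82) in 4 naive libraries. The ranges overlapped. The immunoproteasome genes relative to the constitutive genes they replace had their lowest medians in CD11c+ IM. The ratio of Psmb9 to Psmb6 was 0.113 to 0.17 in CD11c+ and 0.185 to 0.248 in CD11c- libraries, with no overlap, and 0.149 to 0.228 in naive libraries. Psmb8 to Psmb5 was 1.09 to 1.47 (median 1.23) in CD11c+, 1.39 to 2.49 (median 1.76) in CD11c- and 1.62 to 1.88 (median 1.72) in naive libraries. Psmb10 to Psmb7 was 1.15 to 1.97 (median 1.26), 1.24 to 2.14 (median 1.54) and 1.46 to 1.80 (median 1.71). In the last 2 ratios the tumor subsets overlapped. Exons of Psmb9 share 212 bases with Tap1 and those of Psmb8 share 186 with Gm20496, both on the opposite strand. As the strand setting is not given, the reads assigned to these genes are uncertain.

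**Figure D5:**
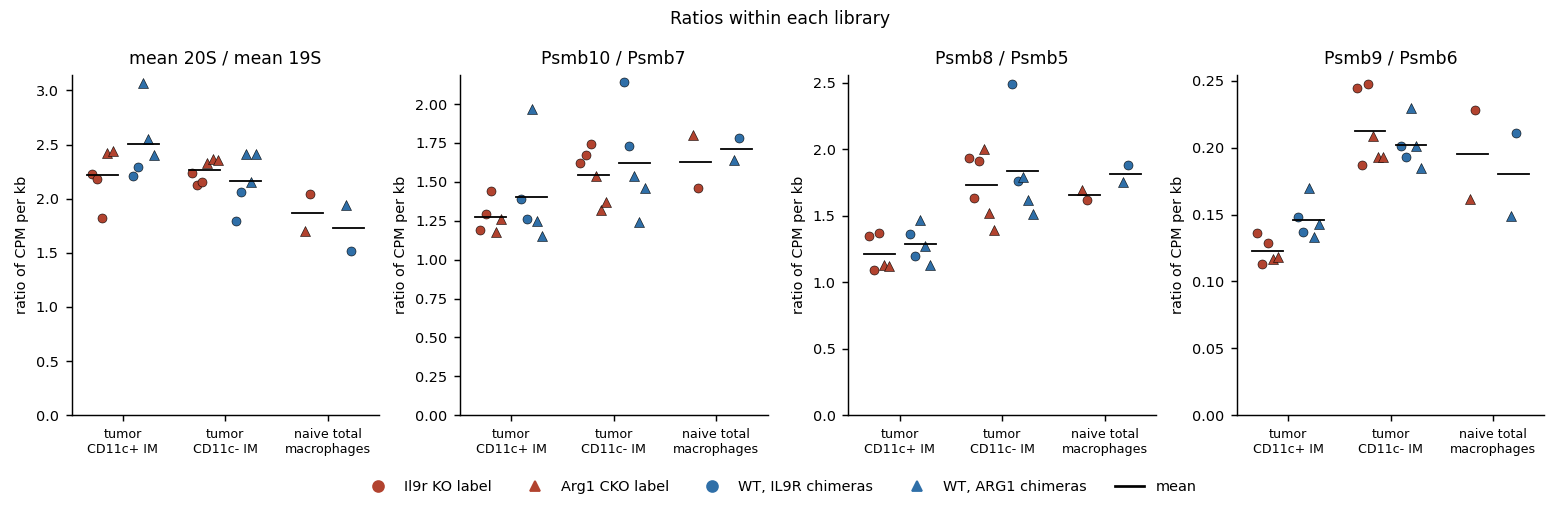
Ratios of immunoproteasome to constitutive catalytic genes and of 20S to 19S genes, per kb of exon, in each library by population. Points for Psmb9 over Psmb6 run from 0.113 to 0.17 in CD11c+ and from 0.185 to 0.248 in CD11c- libraries and do not overlap, whereas the 20S over 19S points of the 3 populations do.

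Neither genotype label moved a proteasome gene past the threshold. In cells labelled Il9r KO against WT over both subsets, edgeR called 0 of 47 members, where 0.0521% of all genes were called, and none had an unadjusted p under 0.05. The log2 fold changes ran from -0.24 to 0.46 with a median of -0.06. Psmb5, Psmb6 and Psmb7 stood at 0.00, -0.06 and 0.03 (SE 0.16, 0.14 and 0.17), Psmb10 at -0.08, Psme1 at -0.05, Psme2 at 0.00, Psme4 at 0.01 and Psmf1 at -0.16. The smallest unadjusted p values were those of Psme3 (-0.16, p 0.115, edgeR) and Psmd2 (-0.17, p 0.129). Within CD11c- IM 0 of 47 were called (0.0223% of all genes) and 1 had an unadjusted p under 0.05, as had 836 of all 13434 genes. This member, Psmd2, had 283, 296 and 297 CPM in cells labelled Il9r KO, against 472 and 358 CPM in WT cells. Its groups did not overlap, but the adjusted p was 0.777 (log2 fold change -0.51, SE 0.15, edgeR). Within CD11c+ IM 0 were called (0.0298% of all genes), 0 had an unadjusted p under 0.05, and the smallest was that of Psmg1 (0.32, p 0.195, edgeR).

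In CKO against WT cells over both subsets, edgeR called 0 of 47 (0.0372% of all genes). The 2 members at an unadjusted p under 0.05 were Psma8 (0.97, p 0.0169) and Psmf1 (-0.28, p 0.0436), beside 519 of all 13434 genes. Psmb5, Psmb6 and Psmb7 stood at -0.07, -0.07 and -0.03 (SE 0.15, 0.14 and 0.16), Psmb10 at -0.18, Psme1 at -0.25, Psme2 at -0.12, Psme3 at -0.07 and Psme4 at 0.00. Within CD11c- IM 0 were called (0.00744% of all genes) and 0 passed an unadjusted p of 0.05, with Psmc3ip lowest in p (-0.66, p 0.121, edgeR). Within CD11c+ IM 0 were called (0.0447% of all genes) and 3 passed an unadjusted p of 0.05, as did 779 of all 13434 genes. Psma8 had 9.52 and 4.7 CPM in CKO cells, against 2.3, 1.8 and 2.37 CPM in WT cells, without overlap (log2 fold change 1.72, edgeR adjusted p 0.775). Psmf1 averaged 37.3 ± 4.48 CPM in CKO cells (SD, n = 2) and 55.4 ± 8.47 CPM in WT cells (SD, n = 3; log2 fold change -0.57, edgeR adjusted p 0.775). The third, Psmg3, had a log2 fold change of -0.69 (p 0.0191).

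Whether a genotype effect differed between CD11c+ and CD11c- IM was tested directly, and edgeR called no member for either genotype (0% of all genes called). Psmd2 had the smallest unadjusted p for the Il9r label (difference of log2 fold changes 0.67, p 0.00666, adjusted p 0.861). Psmf1 (-0.60) and Psmg3 (-0.83) were below 0.05 unadjusted for the Arg1 label, as were 519 of all 13434 genes. DESeq2 and limma-voom also called 0 members in all genotype and difference tests.

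WT cells of the IL9R and ARG1 chimeras were set side by side, 4 against 6 tumor libraries. edgeR called 0 of 47 members, where 0.268% of all genes were called, and 9 passed an unadjusted p of 0.05, as did 2194 of all 13434 genes, a similar share. Of the 47 log2 fold changes 37 were negative, with a median of -0.15 (all genes 0.01). Among these, all 4 core chaperone genes were lower in IL9R chimeras without being called, with log2 fold changes of -0.58 for Psmg3 (SE 0.19, p 0.00644, adjusted p 0.163), -0.48 for Psmg1 (p 0.00992), -0.68 for Psmg4 and -0.40 for Psmg2. Psmg3 had 21.2 and 17.8 CPM in CD11c+ and 16 and 17.9 CPM in CD11c- WT cells of IL9R chimeras, against 46.1, 27.3 and 24.5 CPM in CD11c+ and 19.5, 20.6 and 27.4 CPM in CD11c- WT cells of ARG1 chimeras. Within each subset the IL9R libraries lay below the ARG1 libraries.

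The naive knockout and WT libraries, 1 each, allowed no test. The library labelled Il9r KO was above its WT library in 39 of 47 members (median log2 ratio 0.45, all genes 0.05), and 17 members passed a 1.5-fold difference in either direction. The CKO library was below its WT library in 43 of 47 (median log2 ratio -0.27, all genes -0.04), and 2 passed it. The share of all genes past 1.5-fold or 2-fold is not given here, so these counts cannot be called particular to the members. Psmb7 was the 1 member past 2-fold, with 86.5 CPM in the naive library labelled Il9r KO and 43 CPM in its WT library, and it had 52.1 CPM in the CKO and 69.3 CPM in the WT library of the ARG1 chimeras. The naive WT libraries of the IL9R and ARG1 chimeras themselves differed for all 3 catalytic genes (Psmb6 160 and 316 CPM, Psmb5 79.3 and 139 CPM, Psmb7 43 and 69.3 CPM), so the naive ratios of the 2 chimera kinds are taken against WT libraries at different levels.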

How the data were processed

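PolyA RNA was made into libraries with SMART-seq v4 and Nextera XT, per the labels' protocols, which name no molecular identifiers. The authors deposited raw read counts per gene. The submitters' processing notes name FastQC 0.11.5, STAR 2.7.10a, featureCounts (Subread 2.0.3) and mm10; annotation, strand setting and gene filter are not given in the sources used here. Genes were taken by symbol, because the identifier column did not match the symbols. All 25 libraries carry 1 batch label.

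Groups came from titles. One fit held the 21 tumor libraries with 1 term per group (13434 genes, 48 removed, 13 residual degrees of freedom). Tumor was set against naive among the 12 WT libraries (13170 genes) and among the 13 labelled knockout (13356 genes), with chimera kind as a term. Two-sided edgeR 4.0.16 quasi-likelihood tests (R 4.3.3, TMM, filterByExpr, robust) were adjusted by Benjamini-Hochberg over all genes, in 16 comparisons. A check on simulated counts covered only CD11c+ against CD11c- IM in WT cells, not the comparisons with naive cells. It used a smaller spread between libraries than these data had, so it does not show how the tests perform here. DESeq2 1.42.0 and limma 3.58.1 voom were among the alternatives. Exons came from GENCODE vM21, promoters from RefSeq GRCm38.p6.

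Members, gene lists and tests were chosen with earlier results of these data known. The rule for named genes took the catalytic genes, Psmb10, activators and Psmf1, up to 10 called members per comparison by adjusted p (with none called, the 2 smallest p), the 3 highest and lowest per length, and up to 3 called genes per list. Values of some listed genes are not reported here. Other names, such as Psma8, Psmg2 to Psmg4 and Psmd2 where not called, were chosen after their values were seen.

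The labels number libraries within groups and name no animal. Over 8111 genes, deviations of same-numbered knockout and WT libraries correlated at 0.25 to 0.46 in IL9R chimeras and 0.21 to 0.38 in CD11c- ARG1 libraries, which were taken as pairs, and at -0.07 and -0.17 in CD11c+ ARG1 libraries, which were not. CD11c+ and CD11c- libraries of 1 genotype and number correlated at 0.19 to 0.40 in IL9R chimeras, 0.05 to 0.35 in WT and -0.13 and -0.15 in CKO libraries of ARG1 chimeras.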

Additional observations from a re-analysis of the deposited data

How the results depend on the processing

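Beside the tests reported, edgeR with RLE scaling, no filter on low counts, the compared groups alone, the replicate block, DESeq2, limma-voom, a fit of all 25 libraries and leaving out each library were run; leaving out both libraries that stood apart and the within-chimera values were added after seeing the data. Of 2042 recomputed values, 1888 kept their direction and side of the threshold, or their size.

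The number of members called in CD11c- IM over naive cells was 29 to 37 in knockout-labelled and 23 to 32 in WT cells under the settings that keep every library. Leaving out 1 library gave 0 to 35 and 2 to 30. In CD11c+ WT IM it was 15 to 27, and 2 to 23 with 1 library left out. In CD11c+ IM labelled knockout, 2 members became 21 with DESeq2, 0 with the compared groups alone and 28 without both libraries that stood apart. Both were set apart in part by member levels, so calls without them are no independent check of the members. Leaving out 1 library gave 0 to 28 there: 28 without Il9r KO CD11c+ replicate 3, 8 without the naive Il9r KO library, 5 without Il9r KO CD11c- replicate 2, 0 without the naive CKO library and 1 without any of the other 9. Without the naive CKO library, Psme3 stood at 0.03 (-0.04 with it) and Psme4 at -0.05 (0.20 with it), neither called; without the naive Il9r KO library they stood at -0.09 and 0.56. The cause was not tested.

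Between CD11c+ and CD11c- IM, leaving out 1 library gave 0 to 3 members in WT cells: 0 without IL9R CD11c+ WT replicate 2, and 1 without replicate 1. In cells labelled Il9r KO, 0 members became 2 with DESeq2, and 0 to 1 with 1 library left out. In CKO cells, 0 became 1 with DESeq2, 2 with the compared groups alone and 1 without both libraries that stood apart.

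With the replicate number as a block for all label numbers, 5 members were called in cells labelled Il9r KO (CD11c+ over CD11c-), and with the block where the numbers pair the libraries 2 were; the WT comparison had 4 and 2. No genotype comparison gained or lost a member call under the block. The median of the members between IL9R and ARG1 chimeras was -0.34 and -0.35 with the 2 blocks, against -0.15. Without 1 IL9R CD11c- WT library (replicate 2) the median of cells labelled Il9r KO against WT in CD11c- IM was 0.17, and their CD11c+ minus CD11c- difference -0.30. Without ARG1 CD11c+ WT replicate 1, or without both that stood apart, the median of CKO against WT in CD11c+ IM was 0.00; the difference between subsets was -0.03 and -0.02. With 2 or 3 libraries a group and 1 naive library a group, a difference that was not called is not shown to be absent.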
